A study of Mus musculus with 4 samples.

Results

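NPMc+ stem cells were set against Mx control stem cells, each as 1 single-cell RNA library of long-term hematopoietic stem cells. The cells had been sorted by flow cytometry from crushed bone marrow of the limbs and sternum of C57BL/6 mice aged 8 to 11 weeks. The NPMc+ library came from mice labelled NPMc+ and the Mx library from mice labelled MxCRE, which the series names as its control. After filtering, 2375 NPMc+ and 2519 Mx cells remained, together 4894 of the 10608 cells of the series, whose other libraries are Flt3-ITD and NPMc+/Flt3-ITD. Cells were kept with 1000 or more unique molecular identifiers (UMIs, each a counted RNA molecule), 500 or more genes, and a mitochondrial share of UMIs no higher than 10%. The number of animals pooled, whether Cre was induced, and whether the NPMc+ mice also carried MxCRE are not given in the sources used here. With 1 library per genotype, genotype and library cannot be told apart and no test between genotypes was possible. Values for cells are therefore descriptions of these libraries, and intervals cover counting error only, at 95%.

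Nucleophosmin, encoded by Npm1, is a chaperone of the nucleolus that takes part in ribosome assembly and histone handling. NPMc+ is the mutant form found in acute myeloid leukemia, which is displaced to the cytoplasm. MxCRE denotes Cre recombinase under the interferon-inducible Mx1 promoter, a common driver of recombination in blood cells. Long-term hematopoietic stem cells are mostly quiescent and rebuild all blood lineages. A part of them carries megakaryocyte RNA, and their surface is classically poor in CD48, CD34 and FLT3.

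The libraries were of similar depth. NPMc+ held 25070675 UMIs in kept cells, with a median of 9466 UMIs and 3218 genes per cell, and Mx held 20943905 UMIs, with medians of 8094 and 3008. To compare shares of cells, each cell was thinned to 3000 UMIs, which left out 125 NPMc+ and 208 Mx cells and kept 2250 and 2311. The median number of genes per thinned cell was 1479 in NPMc+ and 1499 in Mx. Levels are given as CPM, counts per 1000000 UMIs of the library, with UMIs summed over kept cells, and shares as the percent of thinned cells with at least 1 UMI. The exact interval of such a share (Clopper-Pearson) reached at most 2.09 points to either side in NPMc+ and 2.06 points in Mx. Male cells made up 70.0% of NPMc+ cells and 67.6% of Mx cells whose sex could be called from Y-linked and Xist UMIs, so both libraries mixed the sexes. The libraries shared 31 barcodes, of which 8 were kept in both.

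The label of long-term stem cells was checked against its markers. All 9 stem cell markers had UMIs in both libraries and summed to 508 CPM in NPMc+ and 748 CPM in Mx. Procr, which encodes the endothelial protein C receptor of stem cells, stood at 87.95 CPM in NPMc+ and 103 CPM in Mx and was found in 23.6% of NPMc+ and 25.6% of Mx cells. Markers of multipotent or lymphoid-primed progenitors summed to 448 CPM in NPMc+ and 502 CPM in Mx. Markers of mature cells differed by set. The B and plasma cell set summed to 1390 CPM in NPMc+ and 45.7 CPM in Mx, with 24150 UMIs of Igkc in NPMc+ and 5 in Mx, 2674 and 8 of the joining chain gene Jchain, and 14 and 0 of the B cell gene Ms4a1. The secondary granule set of neutrophils summed to 7.34 CPM in NPMc+ and 178 CPM in Mx, with 98 UMIs of S100a8 in NPMc+ and 1574 in Mx, and 43 and 1138 of S100a9. The T cell gene Cd3e had 13 UMIs in NPMc+ and 7 in Mx, the macrophage gene Adgre1 had 1 and 0, and the endothelial gene Cdh5 had 0 and 2. Cells with 5 or more thinned UMIs of the megakaryocyte markers made up 14.8% of NPMc+ cells (333 of 2250) and 1.82% of Mx cells (42 of 2311). Stem cells carry these genes too, so these cells were not counted as another lineage. Cells with 5 or more thinned UMIs of the B and plasma, T and NK, primary granule, secondary granule, mast or erythroid markers made up 15.2% of NPMc+ cells (341 of 2250) and 6.10% of Mx cells (141 of 2311). Among these NPMc+ cells, 213 were marked by primary granule genes, 96 by the T and NK cell set, which holds Nkg7, and 10 by the B and plasma cell set. Nkg7 made up 406 of the 422 CPM of the T and NK cell set in NPMc+ and 140 of the 159 CPM in Mx. Some progenitor cells also carry Nkg7, so these 96 cells are not shown to be T or NK cells. In both libraries the largest gene of the granule set was the protease gene Prtn3, at 504 CPM in NPMc+ and 518 CPM in Mx. The sign of that small Prtn3 difference turned under TMM scaling, a scaling that leaves out extreme genes.

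Npm1 itself (mm10 chr11:33152287-33163206, minus strand) stood at 1820.0 CPM in NPMc+ and 1628 CPM in Mx, 1.12-fold higher (1.103 to 1.13), and was found in 99.2% of NPMc+ and 98.7% of Mx cells. The tables hold no sequence of the reads, so the mutant allele could not be read. Gm5611, an annotated processed pseudogene similar to Npm1 (mm10 chr9:17030045-17030896, plus strand), stood at 859 CPM in NPMc+ and 1.91 CPM in Mx. It was found in 86.4% of NPMc+ and 0.476% of Mx cells, the widest gap of any named gene. Npm1 and Gm5611 together placed 32.1% of their UMIs on Gm5611 in NPMc+ and 0.117% in Mx. Because the copies are alike, the split of reads between them is uncertain. In the other libraries of the series Gm5611 stood at 646.9 CPM in NPMc+/Flt3-ITD and 1.001 CPM in Flt3-ITD. Its level was thus high in both libraries labelled with NPMc+ and low in Mx and Flt3-ITD. The cause of this pattern was not tested. The Gm5611 ratio of NPMc+ over Mx was 449.7 with all cells and 1239 without the top 1% of cells. Those cells held 65.0% of its UMIs in Mx and 3.55% in NPMc+. For a gene found in few Mx cells, this step by itself raises the ratio, so the rise is no sign of a larger difference. Among 27 NPMc+ cells with an erythroid-committed profile (5 or more thinned UMIs of 8 erythroid markers), Gm5611 was found in 29.6% (13.8 to 50.2%), below the share of all NPMc+ cells.

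These 27 cells also served as a measure of background, since free RNA gives UMIs to cells that do not express a gene. Their median depth before thinning was 11448 UMIs, against 9750 for all thinned NPMc+ cells. Of 144 named genes, 120 had a share in all NPMc+ cells that lay inside the interval of the 27 cells, 15 lay above it and 9 below. The genes above it included Klf2, Zfp36, Hlf, Nkx2-3, Mecom, Meis1, Hoxa9, Procr and Gm5611. For a gene that erythroid cells should lack, a share inside or below the interval is not distinguishable from background at this number of cells. The shares of Cpa3, F2r and Cd69 lay inside their intervals and that of Cd48 below its interval. Whether the 27 cells lack these genes was not tested, so their shares could not be told apart from background.

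Of 6588 genes with at least 20 CPM in 1 of the libraries, 117 stood 2-fold or more above Mx in NPMc+ (1.78%) and 147 stood 2-fold or more below (2.23%). A difference in level and a difference in the number of cells were not the same thing. Of the 117 higher genes, 50 were found in at least 10 percentage points more NPMc+ cells, 22 in at least 20 points more, and 35 differed by under 5 points. Of the 147 lower genes, 45 were found in at least 10 points fewer cells, 20 in at least 20 points fewer, and 55 differed by under 5 points. Over all 6588 genes, 113 gained at least 10 points in NPMc+ (1.72%) and 113 lost at least 10 points (1.72%). A few cells carried some of the difference: in 7 of the 117 higher genes at least 50% of the UMIs lay in the top 1% of cells, as in 4 of the 147 lower ones. The median log2 ratio of all genes was -0.01 with library totals, 0.15 under TMM scaling and 0.21 under median-of-ratios scaling, so differences smaller than these depend on the scaling. TMM gave 161 higher and 97 lower genes, and median-of-ratios 182 and 87, which turned the balance: higher genes were 44.3% of all called with library totals, 62.4% with TMM and 67.7% with median-of-ratios.

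**Figure D1:**
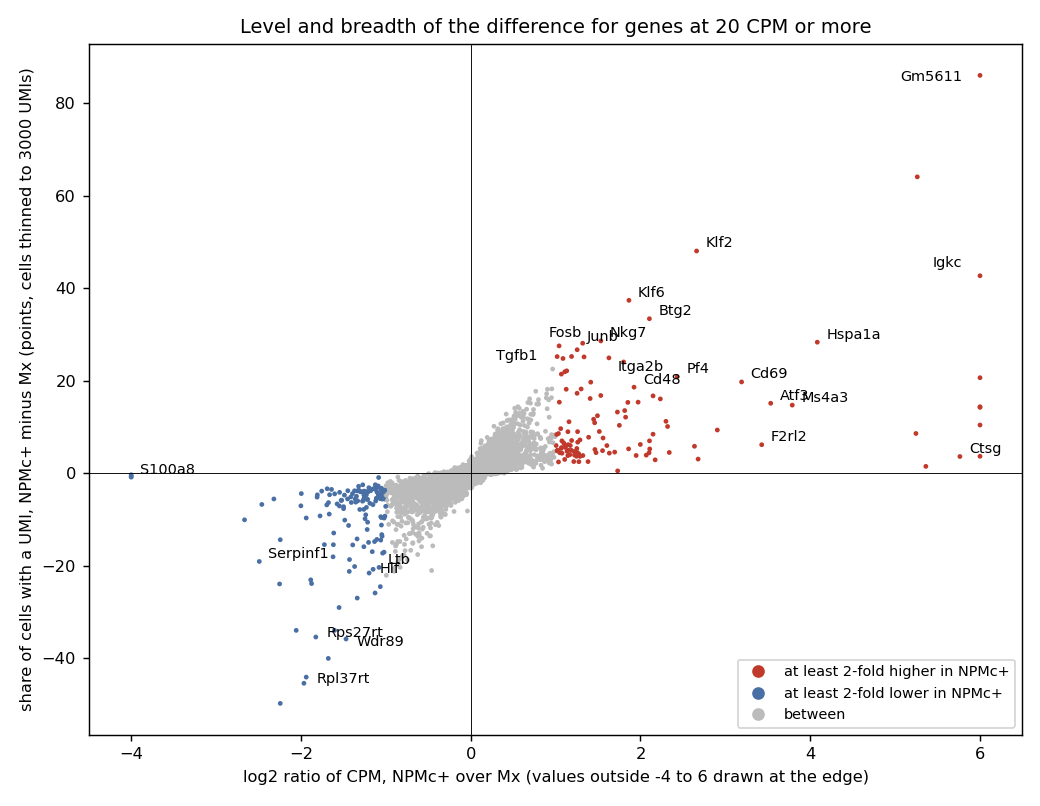
Each point is 1 of 6588 genes; the horizontal axis gives the log2 ratio of CPM, NPMc+ over Mx, and the vertical axis the difference in the share of thinned cells with a UMI, NPMc+ minus Mx, in percentage points. Klf2 and Klf6 lie high, with both level and share larger in NPMc+, while Ctsg lies far right with a small gain in share.

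The immediate-early genes were the list with the most members found in more NPMc+ cells. Cells switch them on within minutes of a stimulus or of handling. Of 34 genes written in this list, 30 were at 20 CPM or more; 20 of them were at least 1.5-fold higher in NPMc+ and 1 was lower (median log2 ratio 1.06). Over all genes, 4.37% lay at or above that fold on the higher side and 8.91% on the lower side. The counts of higher and lower members of every later list are to be read against these shares. In 15 of the 30 the share of cells was at least 10 points larger in NPMc+, and in 0 smaller. The median thinned cell held 49 UMIs of the list in NPMc+ and 23 in Mx, and 89.0% of NPMc+ cells lay above the median Mx cell. The 10th and 90th percentiles were 23 and 82 UMIs in NPMc+, against 11 and 43 UMIs in Mx, so the whole distribution was shifted.

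**Figure D2:**
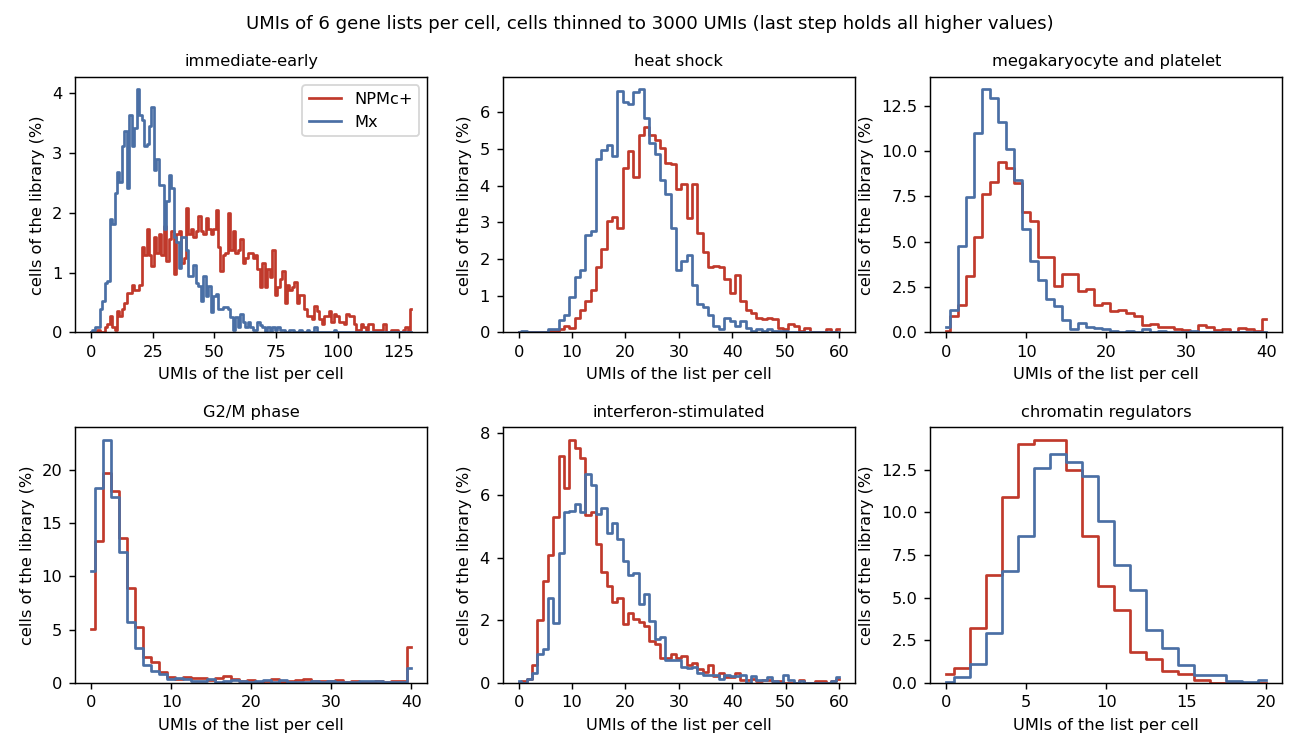
UMIs per cell of 6 gene lists, with cells thinned to 3000 UMIs; the horizontal axis gives UMIs of the list and the vertical axis the percent of cells of the library. The immediate-early curve of NPMc+ is shifted as a whole (median 49 against 23 in Mx), the megakaryocyte curve has a longer upper tail (90th percentile 20 against 11), and the chromatin curve lies lower (median 6 against 8).

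Within this list the transcription factor genes stood out. Klf2, which encodes a zinc finger factor that holds lymphocytes and endothelium in a resting state (mm10 chr8:72319033-72321656, plus strand), stood at 594 CPM in NPMc+ and 94.01 CPM in Mx and was found in 68.6% of NPMc+ and 20.6% of Mx cells (without thinning 89.8% of NPMc+ and 39.3% of Mx cells). Klf6, a related factor, stood at 614 CPM in NPMc+ and 169 CPM in Mx and was found in 71.1% of NPMc+ and 33.7% of Mx cells. The antiproliferative gene Btg2 stood at 301 CPM in NPMc+ and 69.95 CPM in Mx, 4.302-fold higher (4.07 to 4.55), in 49.9% of NPMc+ and 16.5% of Mx cells. All 3 were both higher in level and found in more NPMc+ cells, by at least 33 points. Atf3, a stress-induced factor of the bZIP family, stood at 75.8 CPM in NPMc+ and 6.54 CPM in Mx and was found in 16.9% of NPMc+ and 1.77% of Mx cells. The top 1% of cells held 14% of its UMIs in NPMc+ and 51.8% in Mx, and without those cells the ratio was 20.7 rather than 11.6. Atf3 was found in few Mx cells, so this step itself raises the ratio, which is no sign of a larger difference.

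The AP-1 genes, whose products pair to bind DNA, were abundant in both libraries. Junb was found in 87.9% of NPMc+ and 61.2% of Mx cells, with 1136 CPM in NPMc+ and 476 CPM in Mx. Fosb was found in 63.4% of NPMc+ and 35.9% of Mx cells, with 393 CPM in NPMc+ and 191 CPM in Mx. Fos stood at 3087 CPM in NPMc+ and 1164 CPM in Mx and Jun at 2238 CPM in NPMc+ and 1208 CPM in Mx; Fos was found in 98.5% of NPMc+ and 82.4% of Mx cells. Feedback genes of the same response differed among themselves. The phosphatase gene Dusp1 stood at 1022 CPM in NPMc+ and 448 CPM in Mx and the mRNA decay factor gene Zfp36 at 522 CPM in NPMc+ and 246 CPM in Mx. Their relatives Dusp2, at 277 CPM in NPMc+ and 318 CPM in Mx, and Zfp36l1, at 34.5 CPM in NPMc+ and 44.2 CPM in Mx, were not at least 1.5-fold apart. The growth response factor gene Egr1 did not differ by 1.5-fold, at 275 CPM in NPMc+ and 276 CPM in Mx, a ratio whose side of 1 depends on the scaling. Klf10, a TGF-beta-inducible factor, was the member at least 1.5-fold lower, at 48.3 CPM in NPMc+ and 82.5 CPM in Mx. Other genes were also compared between NPMc+ cells with and without a Klf2 UMI: Junb was found in 89.8% of NPMc+ cells with Klf2 (88.2 to 91.3%) and in 83.6% of those without (80.7 to 86.3%), and Hlf in 30.8% of cells with Klf2 and in 28.7% of those without.

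The heat shock genes, which encode chaperones that refold proteins, differed in a few members. Of 23 at 20 CPM or more, 4 were at least 1.5-fold higher in NPMc+ and 0 lower (median log2 ratio 0.25). The inducible chaperone gene Hspa1a (mm10 chr17:34969190-34972156, minus strand) stood at 247 CPM in NPMc+ and 14.6 CPM in Mx, 16.9-fold higher (15.1 to 19.1), and was found in 31.4% of NPMc+ and 3.12% of Mx cells. The top 1% of cells held 10.5% of its UMIs in NPMc+ and 47.9% in Mx, and without those cells the ratio was 29.1. Hspa1a was found in few Mx cells, so that rise too is no sign of a larger difference. Hspa1b, its near-identical neighbour, stood at 19.8 CPM in NPMc+ and 2.196 CPM in Mx; reads of the pair cannot be safely parted. Hsph1, which encodes a nucleotide exchange factor, stood at 38.5 CPM in NPMc+ and 18.6 CPM in Mx, the cochaperone gene Dnajb1 at 362 CPM in NPMc+ and 217 CPM in Mx and the mitochondrial chaperonin gene Hspe1 at 551 CPM in NPMc+ and 345 CPM in Mx. The constitutive chaperone gene Hspa8 stood at 2364 CPM in NPMc+ and 1858 CPM in Mx and was found in 99.4% of NPMc+ and 98.7% of Mx cells. The median thinned cell held 26 UMIs of the list in NPMc+ and 22 in Mx. Genes of the unfolded protein response of the endoplasmic reticulum also stood higher, 4 of 17 and 0 lower: Sdf2l1, which encodes a cofactor of the chaperone BiP, stood at 108 CPM in NPMc+ and 38.3 CPM in Mx, Manf, an endoplasmic reticulum stress-inducible factor, at 222 CPM in NPMc+ and 138 CPM in Mx, Creld2 at 47.3 CPM in NPMc+ and 28.98 CPM in Mx, and the asparagine synthetase gene Asns at 25.1 CPM in NPMc+ and 12.9 CPM in Mx.

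Promoters of 4 members that were at least 1.5-fold higher in NPMc+ are shown, 2 of each list. Only promoters that hold the motif searched were printed, so these 4 do not represent the other higher genes. They come from RefSeq (GRCm38.p6) and run 5′ to 3′ on the gene's strand from 250 bases before to 50 bases after the annotated start; capitals mark the motif. The heat shock element was searched as GAANNTTC and the cAMP response element as TGACGTCA, on both strands. Of 17 heat shock genes with a promoter in the table, 8 held GAANNTTC (47.1%), against 9.04% of all 27025 genes; it was held by 3 of the 4 higher genes and by 5 of the 13 that differed by less. Of 26 immediate-early genes, 4 held TGACGTCA (15.4%), against 2.03% of all genes; it was held by 3 of the 20 higher genes and by 1 of the 6 that differed by less. Of the same 26, 1 held a CArG box (3.85%), against 1.81%. A match is a description of the letters in this window and not a bound site.
Hspa1a (chr17:34972107-34972406), Hsph1 (chr5:149636266-149636565), Btg2 (chr1:134079106-134079405) and Dusp1 (chr17:26508423-26508722), all on the minus strand, read as follows.
Hspa1a: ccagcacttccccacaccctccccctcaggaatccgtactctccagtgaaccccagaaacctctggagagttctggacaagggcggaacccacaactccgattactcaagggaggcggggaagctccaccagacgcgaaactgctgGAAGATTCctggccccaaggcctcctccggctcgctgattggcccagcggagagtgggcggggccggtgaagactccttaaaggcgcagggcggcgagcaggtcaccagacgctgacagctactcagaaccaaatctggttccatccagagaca
Hsph1: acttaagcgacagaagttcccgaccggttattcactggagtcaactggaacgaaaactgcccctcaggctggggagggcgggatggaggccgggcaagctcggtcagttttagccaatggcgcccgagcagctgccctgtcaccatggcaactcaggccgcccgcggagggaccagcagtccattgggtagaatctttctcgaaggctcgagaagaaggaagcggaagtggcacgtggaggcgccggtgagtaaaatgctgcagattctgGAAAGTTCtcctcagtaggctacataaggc
Btg2: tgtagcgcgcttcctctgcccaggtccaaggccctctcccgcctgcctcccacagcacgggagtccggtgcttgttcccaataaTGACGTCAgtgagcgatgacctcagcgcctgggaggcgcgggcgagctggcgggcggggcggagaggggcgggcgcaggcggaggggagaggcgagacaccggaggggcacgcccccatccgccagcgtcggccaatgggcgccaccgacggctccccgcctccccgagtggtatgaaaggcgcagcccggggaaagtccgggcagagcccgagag
Dusp1: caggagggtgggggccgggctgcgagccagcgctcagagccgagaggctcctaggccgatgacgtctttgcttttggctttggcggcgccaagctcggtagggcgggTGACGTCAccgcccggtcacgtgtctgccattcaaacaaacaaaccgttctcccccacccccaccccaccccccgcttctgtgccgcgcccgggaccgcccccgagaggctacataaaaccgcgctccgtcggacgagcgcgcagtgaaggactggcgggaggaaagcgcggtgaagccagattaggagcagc

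Megakaryocyte and platelet genes were higher in NPMc+ as a group but reached fewer cells than the immediate-early genes. Of 31 at 20 CPM or more, 21 were at least 1.5-fold higher and 2 lower (median log2 ratio 0.90); 7 gained at least 10 points in share and 2 lost as much. The median thinned cell held 9 UMIs of the list in NPMc+ and 6 in Mx, and the 90th percentile 20 and 11. Pf4, which encodes platelet factor 4, a chemokine of platelet granules (mm10 chr5:90772435-90773383, plus strand), stood at 541 CPM in NPMc+ and 100.3 CPM in Mx and was found in 37.2% of NPMc+ and 16.3% of Mx cells (without thinning 59.5% of NPMc+ and 31.3% of Mx cells). In the 27 erythroid-committed NPMc+ cells it was found in 25.9% (11.1 to 46.3%), an interval that holds the share of all NPMc+ cells. The top 1% of cells held 27.1% of its UMIs in NPMc+ and 30.5% in Mx. Itga2b, the integrin subunit CD41 of platelets and early stem cells, stood at 257 CPM in NPMc+ and 83.2 CPM in Mx, 3.09-fold higher (2.93 to 3.26). It was found in 42.4% of NPMc+ and 17.5% of Mx cells. In the 27 erythroid-committed NPMc+ cells it was found in 25.9% (11.1 to 46.3%), which again holds the share of all NPMc+ cells. These 27 cells measure background only for genes that they lack. Whether they lack Pf4 and Itga2b was not tested, so the breadth of both genes could not be told apart from background.

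The higher members of the list included receptor genes of platelets. F2rl2, a thrombin-activated receptor of the PAR family, stood at 26.7 CPM in NPMc+ and 2.48 CPM in Mx. It was found in 6.89% of NPMc+ and 0.736% of Mx cells. The top 1% of cells held 13.6% of its UMIs in NPMc+ and 71.2% in Mx. Without those cells the ratio was 32.3 rather than 10.8. Since F2rl2 was found in few Mx cells, the step itself raises the ratio, which is no sign of a larger difference. F2r, the main thrombin receptor, stood at 172 CPM in NPMc+ and 64.7 CPM in Mx, in 35.2% of NPMc+ and 15.5% of Mx cells. The platelet glycoprotein gene Gp1bb stood at 52.01 CPM in NPMc+ and 12.1 CPM in Mx and P2ry1, a receptor for ADP, at 21.5 CPM in NPMc+ and 4.25 CPM in Mx. Vwf, von Willebrand factor and a mark of platelet-biased stem cells, stood at 21.7 CPM in NPMc+ and 10.6 CPM in Mx, in 5.2% of NPMc+ and 2.77% of Mx cells. Against these stood Mmrn1, the multimerin gene, which long-term stem cells also express, at 37.7 CPM in NPMc+ and 78.3 CPM in Mx, in 9.6% of NPMc+ and 20.8% of Mx cells. Within NPMc+, Itga2b was found in 53.5% of cells with Pf4 (50.02 to 56.9%) and in 35.9% of those without (33.4 to 38.5%), and Hlf in 20.3% (17.7 to 23.2%) and 35.9% (33.4 to 38.5%). In Mx, Hlf was found in 42.7% of cells with Pf4 and in 53.5% of those without. These shares describe cells of 1 library each.

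**Figure D3:**
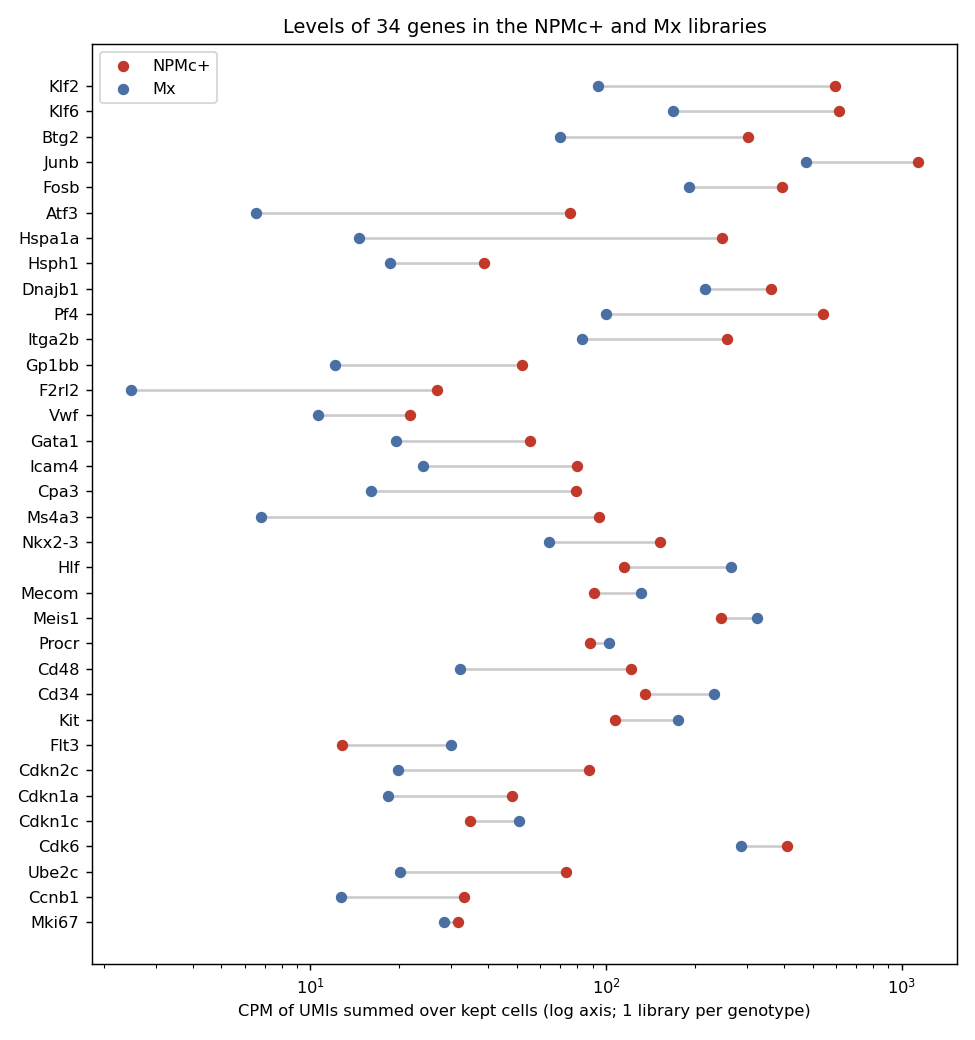
Levels of 34 genes in the NPMc+ library (red) and the Mx library (blue), with CPM on a log axis and 1 point per library. Genes from Klf2 to Nkx2-3 lie to the right in NPMc+, while Hlf, Mecom, Meis1, Cd34, Kit and Flt3 lie to the left.

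Genes of the erythroid and granulocyte paths were mixed. Of 18 erythroid genes, 8 were at least 1.5-fold higher in NPMc+ and 1 lower (median log2 ratio 0.48). Gata1, the master factor of red cells and megakaryocytes, stood at 55.5 CPM in NPMc+ and 19.4 CPM in Mx and was found in 13.4% of NPMc+ and 4.37% of Mx cells. Icam4, an erythroid adhesion gene, stood at 79.7 CPM in NPMc+ and 24.1 CPM in Mx and the lipid transporter gene Mfsd2b at 47.4 CPM in NPMc+ and 16.1 CPM in Mx. The metallothionein gene Mt1, which also answers to metals and stress in other cells, stood at 120.2 CPM in NPMc+ and 33.3 CPM in Mx. It was found in 20.6% of NPMc+ and 5.28% of Mx cells. The top 1% of cells held 20.6% of its UMIs in NPMc+ and 48.3% in Mx, and without those cells its ratio of 3.61 was 5.54. As Mt1 was found in few Mx cells, that rise is no sign of a larger difference. Car2, carbonic anhydrase 2, lay the other way, at 930.0 CPM in NPMc+ and 1438 CPM in Mx. With Car2 included, the erythroid list summed to 2057 CPM in NPMc+ and 2177 CPM in Mx. The median thinned cell held 5 UMIs of the list in NPMc+ and 6 in Mx, so the list as a whole was not higher in NPMc+. Cells with an erythroid-committed profile numbered 27 of 2250 in NPMc+ (1.2%, 0.792 to 1.74%) and 10 of 2311 in Mx (0.433%, 0.208 to 0.794%). Leaving out the cells with markers of other lineages gave a median log2 ratio of 0.45 for the erythroid list and 0.92 for the megakaryocyte list; cells with megakaryocyte markers stayed in.

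Of 18 primary granule and C/EBP genes, 7 were higher and 2 lower (median log2 ratio 0.26). Ms4a3, a mark of progenitors of granulocytes and monocytes, stood at 94.3 CPM in NPMc+ and 6.83 CPM in Mx and was found in 16.5% of NPMc+ and 1.77% of Mx cells. Plac8, a gene of myeloid progenitors, stood at 938 CPM in NPMc+ and 484 CPM in Mx, in 77.1% of NPMc+ and 58.9% of Mx cells. Nkg7, a granule membrane gene of cytotoxic and some progenitor cells, stood at 406 CPM in NPMc+ and 140.4 CPM in Mx, in 53.2% of NPMc+ and 24.6% of Mx cells. In the 27 erythroid-committed NPMc+ cells Ms4a3 was found in 14.8% (4.19 to 33.7%), Plac8 in 85.2% (66.3 to 95.8%) and Nkg7 in 77.8% (57.7 to 91.4%). None of the 3 shares in all NPMc+ cells lay above these intervals, and that of Nkg7 lay below its interval. Whether the 27 cells lack these 3 genes was not tested, so they give no measured background for them. The 3 shares could therefore not be told apart from background. The protease genes were found in few cells: Ctsg stood at 36.3 CPM in NPMc+ and 0.668 CPM in Mx with 3.78% of NPMc+ and 0.173% of Mx cells, and Elane at 25.5 CPM in NPMc+ and 0.621 CPM in Mx with 1.69% of NPMc+ and 0.216% of Mx cells, and the top 1% of NPMc+ cells held 70.2% of the Ctsg UMIs. Cpa3, a mast cell protease gene also found in progenitors, stood at 79.3 CPM in NPMc+ and 16.1 CPM in Mx. It was found in 14.7% of NPMc+ and 3.505% of Mx cells. In the 27 erythroid-committed NPMc+ cells it was found in 14.8% (4.19 to 33.7%), an interval that holds the share of all NPMc+ cells. In the other direction, the neutrophil genes S100a8 (3.91 CPM in NPMc+ and 75.2 CPM in Mx) and Ngp (0.319 CPM in NPMc+ and 23.7 CPM in Mx) were found in at most 1.25% of cells of either library. In Mx the top 1% of cells held 95.9% of the S100a8 and 98.8% of the Ngp UMIs. Without the top 1% of cells S100a8 was 2.32-fold lower in NPMc+, against 19.2-fold with all cells, and Ngp 2.39-fold lower, against 74.2-fold. In NPMc+ the top 1% of cells held 100% of the Ngp UMIs, so its fold without them rests on a floor of 3 UMIs. With cells of other lineages left out S100a8 was 1.72-fold lower and Ngp 3.85-fold lower.

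Immunoglobulin RNA was found in many NPMc+ cells, with few UMIs of the B cell gene Ms4a1 and more of plasma cell genes. Igkc, the kappa light chain constant gene, stood at 963 CPM in NPMc+ and 0.239 CPM in Mx and was found in 42.8% of NPMc+ and 0.173% of Mx cells (without thinning 77.8% of NPMc+ and 0.199% of Mx cells); Ighm, the mu heavy chain constant gene, stood at 278 CPM in NPMc+ and 1.91 CPM in Mx, in 10.8% of NPMc+ and 0.389% of Mx cells. Igha, the alpha heavy chain constant gene, stood at 252 CPM in NPMc+ and 0.0478 CPM in Mx, Jchain at 107 CPM in NPMc+ and 0.382 CPM in Mx and Mzb1, a gene of antibody-secreting cells, at 4.83 CPM in NPMc+ and 0.286 CPM in Mx. The B and plasma cell set marked 10 cells in NPMc+ and 0 in Mx (exact upper bound 0.1595% of cells), and the part of these 10 alone was not tested. With all cells of other lineages left out, these 10 among them, the Igkc ratio was 834, against 4035 with all cells. The Ighm ratio was then 30.1, against 145.6 with all cells. These ratios rest on few Mx UMIs, 5 of Igkc and 40 of Ighm before any cells were left out. The top 1% of NPMc+ cells held 82.6% of the Igkc and 87.1% of the Ighm UMIs. In the 27 erythroid-committed NPMc+ cells, which should lack Igkc, it was found in 33.3% (16.5 to 54.0%). The share in all NPMc+ cells lay inside that interval, so it was not distinguishable from background at this number of cells. Whether some of the cells express Igkc was not tested. The same measure for Hlf was 3.70% (0.0937 to 18.97%), below the share of all NPMc+ cells. Immediate-early and heat shock genes are made by most cell types, and no cell type at hand should lack them.

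Stem cell transcription factors were lower on balance. Of 30, 2 were at least 1.5-fold higher in NPMc+ and 6 lower (median log2 ratio -0.23, -0.03 under median-of-ratios scaling). Hlf, a factor of stem cell maintenance (mm10 chr11:90336536-90390895, minus strand), stood at 115 CPM in NPMc+ and 264 CPM in Mx, 2.29-fold lower (2.19 to 2.4), and was found in 30.1% of NPMc+ and 51.7% of Mx cells (without thinning 55.9% of NPMc+ and 76.3% of Mx cells). Mecom, which encodes EVI1, stood at 90.9 CPM in NPMc+ and 131 CPM in Mx, in 24.6% of NPMc+ and 32.8% of Mx cells. Meis1, the homeobox partner of HOXA9, stood at 245 CPM in NPMc+ and 324 CPM in Mx, in 55.1% of NPMc+ and 61.7% of Mx cells. Rora stood at 11.3 CPM in NPMc+ and 25.6 CPM in Mx. The homeobox gene Nkx2-3 lay the other way, at 153 CPM in NPMc+ and 64.1 CPM in Mx, in 34.8% of NPMc+ and 17.5% of Mx cells. Of 14 HoxA and HoxB genes and cofactors, 4 were higher and 0 lower: Hoxa10 stood at 65.7 CPM in NPMc+ and 37.05 CPM in Mx, Hoxa7 at 83.8 CPM in NPMc+ and 51.8 CPM in Mx, Hoxa5 at 38.9 CPM in NPMc+ and 22.8 CPM in Mx and Nkx2-3 as above. Hoxa9, the best known of these in acute myeloid leukemia, stood at 151 CPM in NPMc+ and 121 CPM in Mx, 1.25-fold higher (1.19 to 1.32), in 36.4% of NPMc+ and 28.3% of Mx cells. Kmt2a, the methyltransferase gene that maintains Hox transcription, stood at 57.96 CPM in NPMc+ and 84.4 CPM in Mx.

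Surface genes split. Of 32 stem cell surface and niche genes, 9 were higher in NPMc+ and 8 lower; the median log2 ratio of -0.12 became 0.02 under TMM scaling and 0.08 under median-of-ratios scaling. Cd48, the SLAM family gene used to gate stem cells out of progenitors, stood at 121 CPM in NPMc+ and 31.99 CPM in Mx and was found in 25.8% of NPMc+ and 7.18% of Mx cells. Cd34 stood at 135 CPM in NPMc+ and 233 CPM in Mx with 30.4% of NPMc+ and 43.8% of Mx cells, and Flt3 at 12.8 CPM in NPMc+ and 29.9 CPM in Mx with 4.4% of NPMc+ and 8.48% of Mx cells, so these progenitor markers lay in different directions. Kit, the stem cell factor receptor, stood at 107 CPM in NPMc+ and 175 CPM in Mx, in 28.04% of NPMc+ and 41.1% of Mx cells. In the 580 NPMc+ cells with a Cd48 UMI, Procr was found in 12.8% (10.2 to 15.8%), against 27.4% of the 1670 without; in Mx the shares were 10.2% of 166 cells and 26.8% of 2145. In both libraries the share with Procr was lower among cells with Cd48 RNA. Sult1a1, a sulfotransferase gene of dormant stem cells, stood at 71.5 CPM in NPMc+ and 29.9 CPM in Mx, in 17.1% of NPMc+ and 8.13% of Mx cells, and Esam, an adhesion gene of stem cells, at 59.1 CPM in NPMc+ and 104 CPM in Mx, in 15.9% of NPMc+ and 27.3% of Mx cells.

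Genes of mitosis were higher in NPMc+, while those of DNA replication were not. Of 30 G2/M genes, 18 were at least 1.5-fold higher and 1 lower (median log2 ratio 0.75); of 32 S phase genes, 0 were higher and 4 lower (median -0.03, with TMM scaling 0.11). Ube2c, which charges the anaphase-promoting complex with ubiquitin (mm10 chr2:164769898-164778822, plus strand), stood at 72.99 CPM in NPMc+ and 20.1 CPM in Mx and was found in 7.2% of NPMc+ and 1.95% of Mx cells. The top 1% of cells held 38.6% of its UMIs in NPMc+ and 71.3% in Mx, and without those cells its ratio of 3.63 was 7.75. As Ube2c was found in few Mx cells, that rise is no sign of a larger difference. The cyclin genes Ccnb1 and Ccna2 stood at 32.99 CPM in NPMc+ and 12.7 CPM in Mx and at 35.1 CPM in NPMc+ and 15.1 CPM in Mx. The survivin gene Birc5 stood at 72.2 CPM in NPMc+ and 33.8 CPM in Mx, in 10.3% of NPMc+ and 3.72% of Mx cells. Mki67, the classical proliferation marker, stood at 31.6 CPM in NPMc+ and 28.4 CPM in Mx, 1.11-fold higher (0.999 to 1.24), and Kif23, a kinesin of cell division, at 16.3 CPM in NPMc+ and 30.4 CPM in Mx.

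Cells rich in mitotic RNA made up a larger share of NPMc+. Cells with 10 or more thinned UMIs of the G2/M list numbered 245 of 2250 in NPMc+ (10.9%, 9.63 to 12.3%) and 140 of 2311 in Mx (6.06%, 5.12 to 7.11%). Cells with 10 or more of the S phase list made up 16.8% of NPMc+ (15.2 to 18.4%) and 17.7% of Mx cells (16.2 to 19.3%). Cells with no UMI of the G2/M list made up 5.02% of NPMc+ and 10.5% of Mx cells. Counts of list UMIs do not by themselves show that a cell divides. The list's median log2 ratio was 0.92 in male and 0.42 in female cells.

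Inhibitors of the cell cycle did not share 1 direction. Of 29 quiescence and inhibitor genes, 5 were higher in NPMc+ and 5 lower; the median log2 ratio of -0.11 became 0.04 under TMM scaling and 0.09 under median-of-ratios scaling. Cdkn2c, which encodes p18 INK4C (mm10 chr4:109660876-109667189, minus strand), stood at 87.6 CPM in NPMc+ and 19.8 CPM in Mx and was found in 21.6% of NPMc+ and 4.89% of Mx cells. Cdkn1a, which encodes p21, a target of p53, stood at 48.02 CPM in NPMc+ and 18.3 CPM in Mx, in 12.4% of NPMc+ and 4.67% of Mx cells. Cdkn1c, which encodes p57, the inhibitor most tied to quiescent stem cells, stood at 34.8 CPM in NPMc+ and 50.95 CPM in Mx, in 10.7% of NPMc+ and 14.02% of Mx cells. Cdk6, the kinase whose level sets how fast stem cells leave quiescence, stood at 411 CPM in NPMc+ and 287 CPM in Mx, in 59.96% of NPMc+ and 45.9% of Mx cells. Of 17 p53 target and Bcl2 family genes, 6 were higher and 0 lower (median log2 ratio 0.39); beside Btg2 and Cdkn1a they held the kinase gene Plk2 (34.1 CPM in NPMc+ and 14.7 CPM in Mx) and the mTOR inhibitor gene Ddit4 (77.5 CPM in NPMc+ and 37.9 CPM in Mx).

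Interferon-stimulated genes were lower on balance. Of 33 at 20 CPM or more, 0 were at least 1.5-fold higher in NPMc+ and 5 lower (median log2 ratio -0.36, -0.16 under median-of-ratios scaling). Tgtp2, an interferon-inducible GTPase gene (mm10 chr11:49057194-49064206, minus strand), stood at 9.85 CPM in NPMc+ and 39.4 CPM in Mx, 4.003-fold lower (3.47 to 4.63), and was found in 3.24% of NPMc+ and 10.3% of Mx cells. Iigp1, another such GTPase, stood at 33.3 CPM in NPMc+ and 79.8 CPM in Mx, in 8.71% of NPMc+ and 16.5% of Mx cells. Ifi203, of the nucleic acid sensor family, stood at 75.03 CPM in NPMc+ and 156 CPM in Mx, in 22.4% of NPMc+ and 36.8% of Mx cells. Not all members followed: Ifi27 stood at 222 CPM in NPMc+ and 149 CPM in Mx. The median thinned cell held 12 UMIs of the list in NPMc+ and 15 in Mx, while the 90th percentiles were 26 in NPMc+ and 25 in Mx. Of 23 MHC genes, 0 were higher and 3 lower (median -0.04, with TMM scaling 0.10); the class II genes H2-Aa (138 CPM in NPMc+ and 214 CPM in Mx) and H2-Eb1 (75.4 CPM in NPMc+ and 122 CPM in Mx) and the cathepsin gene Ctss (7.66 CPM in NPMc+ and 21.5 CPM in Mx) were the lower ones.

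Promoters of the mitotic and interferon groups are again from RefSeq GRCm38.p6, from 250 bases before to 50 after the start. Capitals mark the cell cycle element TTTGAA or the interferon response element GAAANNGAAA, or its reverse complement where the match lay on the other strand. Again only promoters that hold the motif were printed, so they do not represent the other genes of their groups. Of 25 G2/M genes in the table, 19 held TTTGAA (76.0%), against 20.2% of all genes; it was held by 11 of the 15 higher genes and by 7 of the 9 that differed by less. Of 28 interferon-stimulated genes, 17 held GAAANNGAAA (60.7%), against 3.99% of all genes; it was held by 3 of the 4 lower genes and by 14 of the 24 that differed by less.
Ube2c (chr2:164769679-164769978, plus strand), Cdca8 (chr4:124936868-124937167, minus strand), Tgtp2 (chr11:49064163-49064462, minus strand) and Ifi203 (chr1:173942443-173942742, minus strand) read as follows.
Ube2c: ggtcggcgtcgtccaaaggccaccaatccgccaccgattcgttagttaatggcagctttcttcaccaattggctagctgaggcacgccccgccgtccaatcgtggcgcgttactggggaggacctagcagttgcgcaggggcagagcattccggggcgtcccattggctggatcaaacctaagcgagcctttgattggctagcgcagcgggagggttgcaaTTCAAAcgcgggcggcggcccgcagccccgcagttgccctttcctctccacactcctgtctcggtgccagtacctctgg
Cdca8: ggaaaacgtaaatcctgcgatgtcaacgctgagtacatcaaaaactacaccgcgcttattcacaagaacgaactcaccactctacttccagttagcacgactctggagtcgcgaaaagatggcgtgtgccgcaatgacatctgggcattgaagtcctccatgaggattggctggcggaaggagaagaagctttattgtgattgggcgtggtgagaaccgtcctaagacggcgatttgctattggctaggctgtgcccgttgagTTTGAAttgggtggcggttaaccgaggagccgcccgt
Tgtp2: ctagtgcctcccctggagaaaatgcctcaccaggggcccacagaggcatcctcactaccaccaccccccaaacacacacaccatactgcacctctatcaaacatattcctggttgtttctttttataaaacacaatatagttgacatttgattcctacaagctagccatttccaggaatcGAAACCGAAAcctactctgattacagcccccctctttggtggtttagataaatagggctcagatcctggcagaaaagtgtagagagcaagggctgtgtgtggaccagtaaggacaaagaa
Ifi203: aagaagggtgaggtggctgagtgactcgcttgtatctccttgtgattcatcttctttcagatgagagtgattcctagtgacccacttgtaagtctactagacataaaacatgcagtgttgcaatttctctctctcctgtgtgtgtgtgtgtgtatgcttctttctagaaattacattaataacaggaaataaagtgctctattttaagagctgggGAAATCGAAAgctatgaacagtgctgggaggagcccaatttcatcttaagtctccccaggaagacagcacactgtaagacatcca

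Signalling genes at least 1.5-fold higher in NPMc+ included feedback inhibitors and ligands. Of 20 STAT5 and cytokine feedback genes, 8 were at least 1.5-fold higher in NPMc+ and 0 lower (median log2 ratio 0.14). Socs3, a brake on cytokine receptors, stood at 85.6 CPM in NPMc+ and 24.2 CPM in Mx, in 19.5% of NPMc+ and 7.36% of Mx cells, and the cytokine gene Osm at 25.4 CPM in NPMc+ and 5.92 CPM in Mx. Pim1, a survival kinase induced by STAT factors, stood at 491 CPM in NPMc+ and 304 CPM in Mx, in 69.4% of NPMc+ and 53.4% of Mx cells. Of 13 NF-kB and inflammatory genes, 4 were higher and 1 lower; the activation marker gene Cd69 stood at 119.9 CPM in NPMc+ and 13.1 CPM in Mx, in 22.6% of NPMc+ and 2.899% of Mx cells, the feedback inhibitor gene Tnfaip3 at 35.4 CPM in NPMc+ and 11.7 CPM in Mx, and Rel, a subunit of the factor itself, at 12.5 CPM in NPMc+ and 22.6 CPM in Mx. Of 10 TGF-beta genes, 1 was higher and 1 lower (median -0.07, with TMM scaling 0.07). Tgfb1, the ligand, which holds stem cells quiescent and is made by platelets too, stood at 536 CPM in NPMc+ and 265 CPM in Mx, 2.03-fold higher (1.96 to 2.09), and was found in 72.7% of NPMc+ and 47.5% of Mx cells, while the receptor gene Bmpr2 stood at 11.6 CPM in NPMc+ and 20.8 CPM in Mx and the coreceptor gene Eng at 91.1 CPM in NPMc+ and 118 CPM in Mx. Of 19 G protein signalling genes, 4 were higher and 0 lower, among them Rgs1, a brake on chemokine receptors, at 799 CPM in NPMc+ and 427 CPM in Mx, in 76.98% of NPMc+ and 58.9% of Mx cells.

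**Figure D4:**
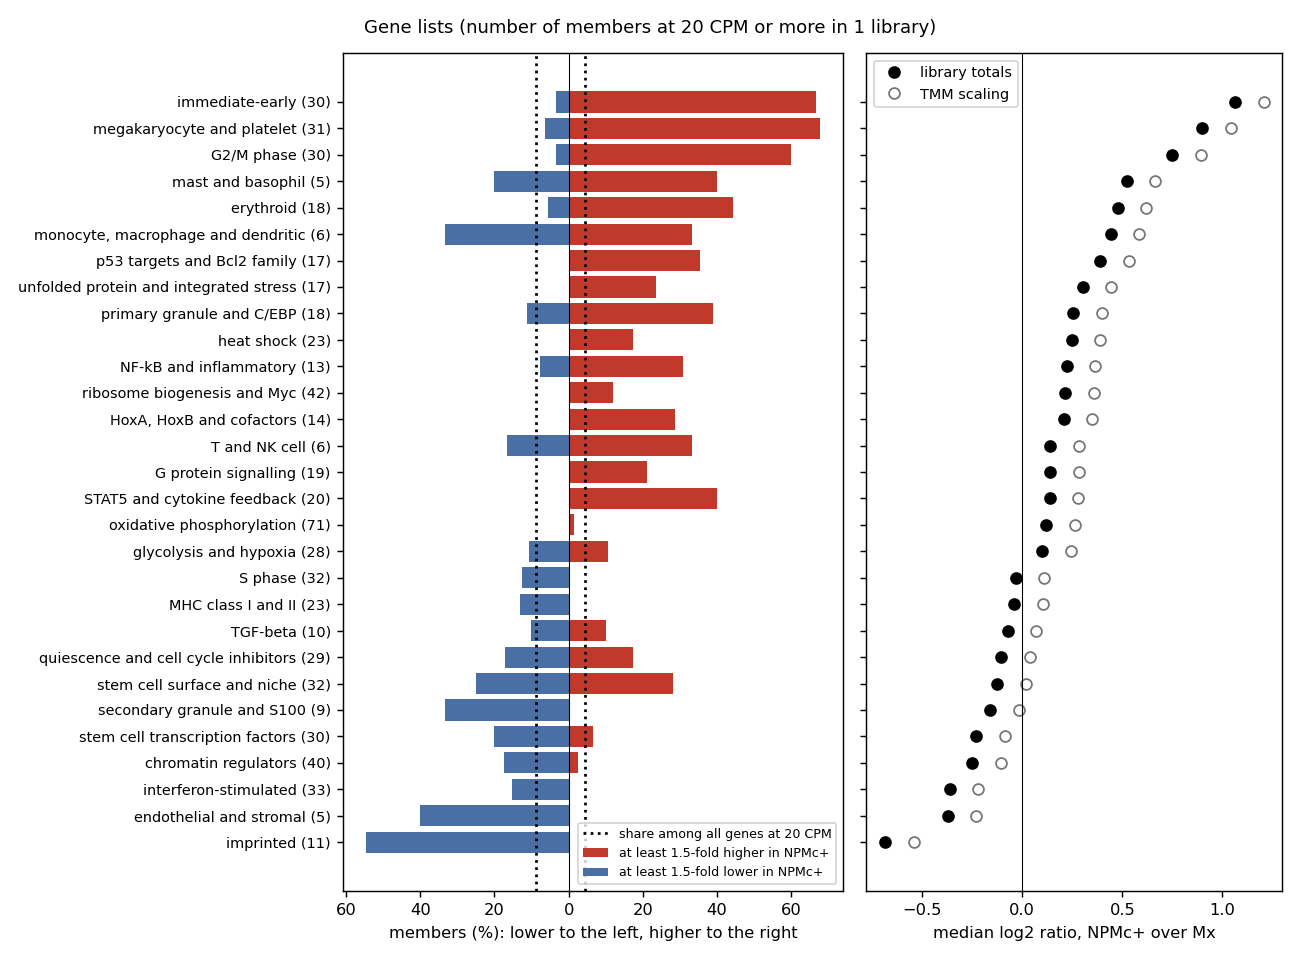
Percent of list members at least 1.5-fold higher (right) and lower (left) in NPMc+, and the median log2 ratio of each list with library totals and under TMM scaling. The B and plasma cell list is left out of the figure. Immediate-early, megakaryocyte and G2/M lists have most members to the right. The imprinted, interferon-stimulated, S phase, MHC, secondary granule and endothelial lists have 0 to the right.

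Most of the widest losses in share of cells fell on genes named as retrocopies of ribosomal protein genes. Retrocopies are intronless copies whose reads can be confused with those of the parent gene. The annotation lists Rpl37rt and Rps2-ps10 as pseudogenes, but Rps27rt, Rpl10-ps3 and Rpl36a-ps1 as protein-coding. Rps27rt was found in 58.4% of NPMc+ and 93.8% of Mx cells, with 275 CPM in NPMc+ and 974 CPM in Mx, while its parent Rps27 stood at 4242 CPM in NPMc+ and 5632 CPM in Mx. Rpl37rt was found in 33.5% of NPMc+ and 77.6% of Mx cells, with 131 CPM in NPMc+ and 501 CPM in Mx, while Rpl37 stood at 4079 CPM in NPMc+ and 4997 CPM in Mx. For Rps2-ps10 the levels were 146 CPM in NPMc+ and 467 CPM in Mx, while Rps2 stood at 3942 CPM in NPMc+ and 4015 CPM in Mx. These 3 copies thus differed more than their parents. The direction was not shared by all: Tpt1-ps3 was found in 57.2% of NPMc+ and 29.1% of Mx cells, with 294 CPM in NPMc+ and 118 CPM in Mx, and its parent Tpt1 stood at 2602 CPM in NPMc+ and 2169 CPM in Mx. Over all 84 ribosomal protein genes, 1 was at least 1.5-fold higher and 1 lower (median log2 ratio -0.03), so these copies are reported as uncertain assignments and not as changes of the ribosome. Wdr89, a gene without a retrocopy name, had the same pattern. It stood at 268 CPM in NPMc+ and 741 CPM in Mx, in 54% of NPMc+ and 89.8% of Mx cells. Of the 147 lower genes 13 were such retrocopies and 30 had clone or prediction names, against 3 and 21 of the 117 higher ones. The share of such names among all genes at the level floor was not counted. These counts therefore do not show whether either kind of name was more frequent than among all genes.

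Limd2 and Serpinf1 were also lower in level and found in fewer NPMc+ cells. Limd2, a LIM domain gene, stood at 169 CPM in NPMc+ and 337 CPM in Mx, in 39.2% of NPMc+ and 61.2% of Mx cells. Serpinf1, which encodes a secreted inhibitor of blood vessel growth, stood at 15.7 CPM in NPMc+ and 88.1 CPM in Mx, 5.62-fold lower (5.04 to 6.29), in 4.89% of NPMc+ and 23.97% of Mx cells. Both kept their direction without the top 1% of cells. Mitochondrially encoded genes were lower in 8 of 14 (median log2 ratio -0.83), but unevenly: mt-Atp6 stood at 143 CPM in NPMc+ and 679 CPM in Mx and mt-Co1 at 237 CPM in NPMc+ and 407 CPM in Mx, while mt-Nd1 stood at 1307 CPM in NPMc+ and 1341 CPM in Mx. Mitochondrial UMIs made up 0.584% of NPMc+ and 0.733% of Mx UMIs. Nuclear genes of oxidative phosphorylation did not share this, with 1 of 71 higher, 0 lower and a median of 0.12.

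Because both libraries mixed the sexes, ratios were also taken within male cells (1155 NPMc+, 1218 Mx) and within female cells (495 and 583). All 117 higher and all 147 lower genes had the same direction in both sexes, and 94 and 105 of them were at least 2-fold in both. These cells are part of the sums that chose the genes, so this describes the spread of the difference and is no separate support. The size of the ratio varied between the sexes for some genes: Pf4 was 5.82-fold higher in male and 3.09-fold in female cells, P2ry1 7.67-fold and 2.08-fold, while Klf2 was 5.60-fold and 9.04-fold and Osm 3.02-fold and 8.99-fold. The ratio for Cd34 was 0.493 in male and 0.920 in female cells, and that for Flt3 was 0.308 in male and 0.845 in female cells. Whether male and female cells came from different animals is not given in the sources used here, and the difference between the sexes was not tested.

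**Figure D5:**
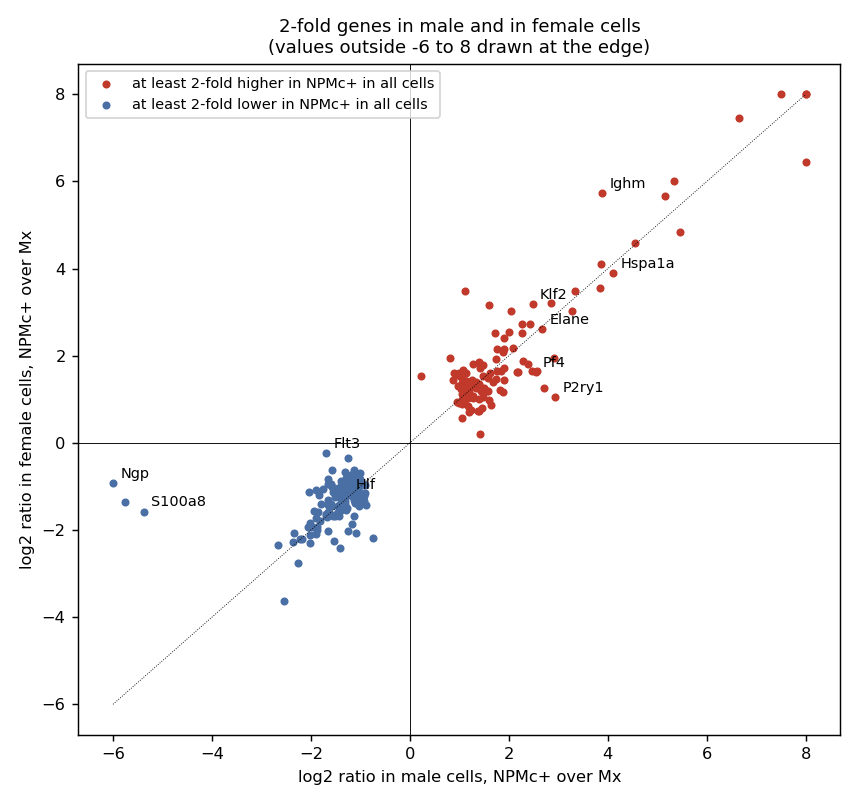
Log2 ratios, NPMc+ over Mx, in male cells (horizontal) and in female cells (vertical) for the 264 genes at least 2-fold higher or lower, with values outside -6 to 8 drawn at the edge. The points lie in the upper right and lower left, since all 117 higher and 147 lower genes kept their direction in both sexes.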

How the data were processed

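The deposited files are tables of whole-number UMI counts per gene and barcode, 1 per library, made from Chromium Single Cell 3′ v2 libraries per the labels' protocols. The submitters' processing notes name STARsolo, STAR 2.7.0c and the mm10 build; further settings are not given in the sources used here. Counts were used as deposited. Barcodes were kept with at least 1000 UMIs, 500 genes and at most 10% mitochondrial UMIs, and doublets were not removed. Counts were summed over kept cells and scaled to CPM by library total. The ratio of NPMc+ over Mx was given an exact 95% interval (Clopper-Pearson on the UMIs), which covers counting error only. A gene with 0 UMIs in 1 library was set to a floor of 3 UMIs. For shares, each cell was thinned at random to 3000 UMIs. Genes entered with at least 20 CPM in 1 library. With 1 library per genotype there are no p-values. Steps ran in Python 3.11.15 with numpy 2.4.6, scipy 1.17.1 and pandas 2.3.3; edgeR 4.0.16 gave TMM factors and DESeq2 1.42.0 median-of-ratios factors, both as scaling alternatives. Thinning, ratios and counts were tested on simulated data.

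Coordinates come from GENCODE release M21, which matched 6533 of 6588 gene symbols (99.2%), and promoters from RefSeq GRCm38.p6. A cell was called male with Y-linked UMIs and no Xist, and female with the reverse. The 30 gene lists were written from general knowledge (1061 names, 1045 matched, 667 at the floor, 615 of them distinct). Members and lists were chosen with earlier results of these data known. Named genes were the 12 largest gains and 12 largest losses in share, the 6 highest and 6 lowest ratios among genes in at least 5% of cells, up to 4 members of each list furthest from no difference, and a fixed set of stem cell, cell cycle and lineage genes. The ranking skipped sex-linked genes, segments of antigen receptors, mitochondrially encoded genes, and names of clones or predictions. Fos, Jun, Egr1, Klf10, Hspa1b, Hspa8, F2r, Mmrn1, Car2, Plac8, Prtn3, Kmt2a, Kif23, Ifi27, Pim1, Dusp2, Zfp36l1, Igha, Mzb1, mt-Atp6, mt-Co1, mt-Nd1, marker genes and the parents of retrocopies are not covered by this rule; their values were known when they were picked. Some genes that these rules pick are not reported here.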

Additional observations from a re-analysis of the deposited data

How the results depend on the processing

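The 2-fold counts depended on the scaling and the level floor. The higher genes, 117 with library totals, numbered 182 under median-of-ratios scaling, 224 with a floor of 5 CPM and 2764 with no floor. The lower genes, 147 with library totals, numbered 97 under TMM scaling, 87 under median-of-ratios scaling, 247 when mitochondrial and ribosomal protein genes were kept out of the library total, 483 with a floor of 5 CPM and 4491 with no floor. The lower floors admit genes with few UMIs. Higher genes made up 44.3% of those called with library totals, 34.7% with those genes kept out and 31.7% with the 5 CPM floor. Genes found in at least 10 points more NPMc+ cells, 113 at 3000 UMIs, numbered 191 at 5000 UMIs and 951 without thinning, where NPMc+ cells are deeper; those found in at least 10 points fewer numbered 222 at 5000 UMIs. The other 25 recomputed counts lay within 1.5 times, among them those with stricter cells, thinned UMIs, the top 1% of cells left out, male cells, female cells and other-lineage cells left out. Some list medians at least 0.1 from 0 on the log2 scale turned: stem cell surface and niche (-0.124 with library totals) to 0.0181 under TMM scaling, 0.0764 under median-of-ratios scaling and 0.0200 in female cells; quiescence and cell cycle inhibitors (-0.106) to 0.0363 and 0.0946 under those scalings; secondary granule and S100 (-0.160) to 0.0408 under median-of-ratios scaling and 0.0035 in male cells; and T and NK cell (0.141) to -0.0016 in male cells. Another 38 of 270 recomputed list medians moved by at least 0.2 without turning, as did 433 of 1295 recomputed gene ratios beyond their interval; the cause was not tested. No paired analysis was possible because there is 1 library per genotype. Replicates could not be left out for the same reason. Depth limits genes near 1 UMI per library, and shares of genes seen in few cells.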

Other observations

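Metabolic genes differed within their lists. Of 28 glycolysis and hypoxia genes, 3 were at least 1.5-fold higher in NPMc+ and 3 lower (median log2 ratio 0.10). Across all 6588 genes 4.37% were higher and 8.91% lower by that fold, so a few lower members can occur in any list. The lactate dehydrogenase subunits lay in opposite directions: Ldha stood at 1073 CPM in NPMc+ and 643 CPM in Mx, and Ldhb at 60.4 CPM in NPMc+ and 139 CPM in Mx. Ldhb was found in 18.5% of NPMc+ and 33.5% of Mx cells. Of 42 ribosome biogenesis and Myc genes, 5 were higher and 0 lower, led by the spermidine synthase gene Srm at 197 CPM in NPMc+ and 102 CPM in Mx, while Myc itself stood at 127 CPM in NPMc+ and 122 CPM in Mx. Of 40 chromatin regulators, 1 was higher and 7 lower (median log2 ratio -0.25). Tet1, which encodes an enzyme that oxidizes methylated cytosine, stood at 15.8 CPM in NPMc+ and 33.1 CPM in Mx, and the cohesin gene Stag2 at 35.5 CPM in NPMc+ and 73.6 CPM in Mx. Of 11 imprinted genes, 0 were higher and 6 lower (median log2 ratio -0.68); Grb10, which encodes a receptor adaptor, stood at 15.5 CPM in NPMc+ and 31.2 CPM in Mx, and Ndn, a gene of quiescent stem cells, at 12.4 CPM in NPMc+ and 24.8 CPM in Mx.

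Levels in the other libraries of the series show which of these genes stood apart from Mx there too, as a description without a test. Hspa1a stood at 247 CPM in NPMc+, 35.8 CPM in Flt3-ITD, 40.2 CPM in NPMc+/Flt3-ITD and 14.6 CPM in Mx. Pf4 stood at 541 CPM in NPMc+, 86.8 CPM in Flt3-ITD, 35.0 CPM in NPMc+/Flt3-ITD and 100.3 CPM in Mx. Klf2 stood at 594 CPM in NPMc+, 1539 CPM in Flt3-ITD, 749 CPM in NPMc+/Flt3-ITD and 94.0 CPM in Mx. Hlf stood at 115 CPM in NPMc+, 128 CPM in Flt3-ITD, 90.6 CPM in NPMc+/Flt3-ITD and 264 CPM in Mx. Igkc stood at 963 CPM in NPMc+, 25.8 CPM in Flt3-ITD, 1.48 CPM in NPMc+/Flt3-ITD and 0.239 CPM in Mx. Gm5611 stood at 858.8 CPM in NPMc+, 1.001 CPM in Flt3-ITD, 646.9 CPM in NPMc+/Flt3-ITD and 1.910 CPM in Mx. Pf4 and Hspa1a were thus high in the NPMc+ library, and Klf2 was above Mx in all 3 mutant libraries. Gm5611 was high in NPMc+ and NPMc+/Flt3-ITD only. The 3 comparisons share the Mx library.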
